A study of Homo sapiens with 18 samples.

Results

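MYC binding was described across the MYC and PVT1 locus, a 2.5-Mb window of human chromosome 8 (build hg19, positions 127500000 to 130000000) that holds the MYC gene at 128748315 to 128753680 and the start of PVT1 at 128806779. Every deposited peak with its summit in the window was taken, which gave 184 of the 150870 peaks that the 9 lists hold on chromosomes 1 to 22 and X. The data are chromatin immunoprecipitation followed by sequencing (ChIP-seq) with a homemade MYC antibody in MCF10A, an immortalised breast epithelial line. All groups carried the plasmids pBABE-hygro-MYC, which supplies ectopic MYC, and pMN-IRES-GFP-PI3KH1047R, which supplies a mutant PI3K. The remaining plasmid, of the pLKO-tetON-puro type and induced with doxycycline at 2 µg/mL for 72 h in every group, carried a hairpin against the histone methyltransferase G9a (shG9a_1 or shG9a_4) or a scramble hairpin (shSCR). Each hairpin had 3 libraries, which the series design calls biological replicates. The 9 inputs were not analysed here. Peak lists carry no measure of G9a itself, so its knockdown could not be checked in these libraries, and the sources used here do not say whether the cells were 1 clone.

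MYC is a transcription factor that pairs with MAX and binds mostly at active promoters and enhancers. MYC itself is transcribed from a short gene in a large region with few protein-coding genes, and many enhancers that act on it in different tissues lie in the surrounding desert. PVT1, the neighbour downstream of MYC, is a long non-coding RNA gene that is often amplified together with MYC in tumours, and its promoter is known from breast cancer cell lines to compete with the MYC promoter for enhancers. MYC protein is also known to lower the transcription of its own gene in many cells.

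The libraries differed in how much was listed. The shG9a lists held 113 to 17454 peaks and the shSCR lists 20118 to 34738. The list of shG9a_1 replicate 1 stood far apart from the rest, with 113 peaks, and counts that include it are also given without it. Averaged over libraries, all listed peaks fell by 60.9% in shG9a relative to shSCR (53.2% without shG9a_1 replicate 1), and 49.4% of all 43222 merged regions of the genome were listed in shSCR libraries alone. Read depth is not listed, and the depth recovered from the peak values, relative to the shSCR mean, was 0.840 to 2.65 in shG9a libraries and 0.925 to 1.04 in shSCR libraries.

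The MYC promoter itself carried few peaks, with folds of 4.33 to 9.42, and 8 of its 9 peaks were in shSCR libraries. The promoter was taken as the stretch from 2000 bp before the MYC start to 500 bp after it. It held 1 peak in the 6 shG9a libraries together, in shG9a_4 replicate 2, and 2, 4 and 2 peaks in shSCR replicates 1, 2 and 3. Of the shG9a libraries 1 of 6 (1 of 5 without shG9a_1 replicate 1) listed a peak at the MYC promoter, against 3 of 3 shSCR libraries. The peaks fell into 4 regions after peaks of all lists that overlapped by at least 1 bp were merged, and 3 of the 4 were listed in shSCR libraries alone, against 49.4% of all merged regions.

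The only MYC promoter region found in every shSCR library lay about 0.4 kb before the MYC start, at 128747765 to 128748070 (306 bp). No shG9a library listed it. The authors' fold enrichment there, which sets the pileup plus 1 against the local background plus 1, was 4.86, 4.88 and 4.48 in the shSCR libraries (4.74 ± 0.227, SD, n = 3). It was a weak site in each of those lists, at rank 22913 of 29827, 27586 of 34738 and 16848 of 20118 by q-value. Among all 14209 regions called in all 3 shSCR libraries, which are called reproducible here, it belonged to the weakest of 10 equal strength classes, of which 39.6% were listed in no shG9a library. With each of 8 lists reduced to its 11168 best peaks, no shSCR library listed it either.

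The other MYC promoter regions were not reproducible between the shSCR libraries. The region about 2.0 kb before the start (128746228 to 128746493) had a fold of 5.80 in shG9a_4 replicate 2, against 6.47 and 6.81 in shSCR replicates 1 and 2. It is the only MYC promoter region that any shG9a library listed. The region about 0.8 kb before the start (128747412 to 128747604) was listed in shSCR replicate 2 alone, with a fold of 9.42, the highest of any peak at MYC. The region that spans the start (128748202 to 128748732) had folds of 6.41 and 4.33 in shSCR replicates 2 and 3 and was in no shG9a list.

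**Figure D1:**
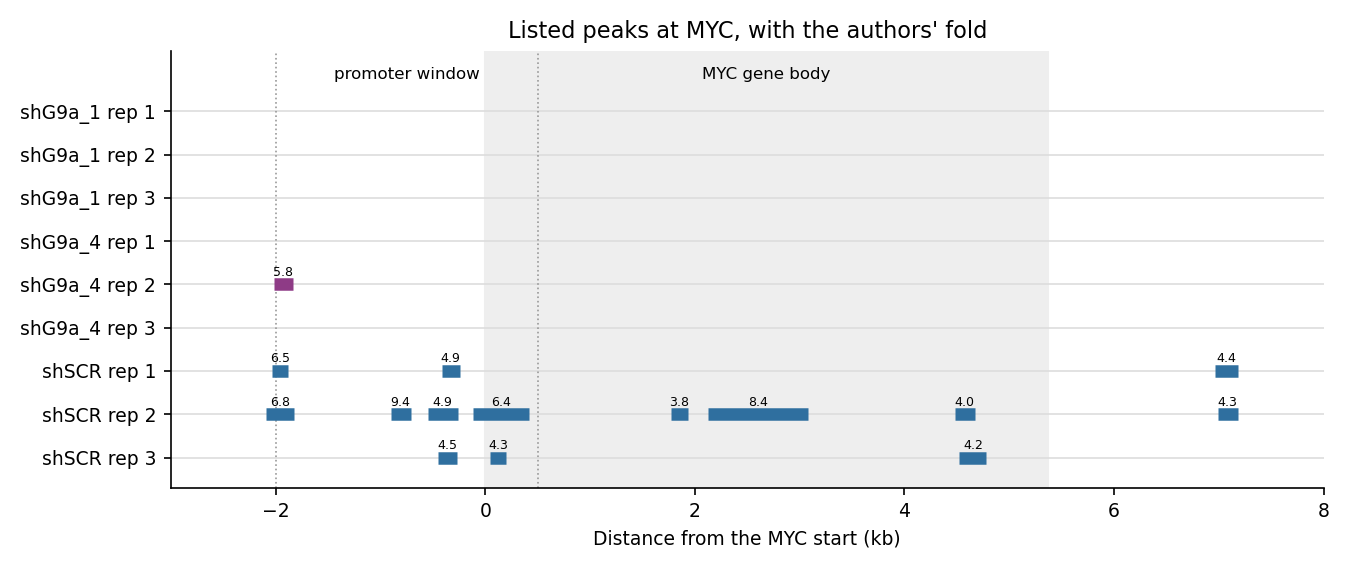
Listed MYC peaks around the MYC gene, with distance from the MYC start in kb on the horizontal axis and the libraries as rows, shG9a above shSCR. Bars span the peaks, numbers give the authors' fold and grey marks the gene body. The 1 shG9a peak near MYC is that of shG9a_4 replicate 2 about 2.0 kb before the start, and all other peaks shown around MYC are in shSCR rows.

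Within the MYC gene body, all 3 regions were listed in shSCR libraries only, against 49.4% of all merged regions, and 2 of the 3 in 1 library only, against 38.8%. The 6 shG9a libraries and shSCR replicate 1 listed 0, while shSCR replicate 2 listed 3 and shSCR replicate 3 listed 1. The widest, at 128750441 to 128751393 (953 bp), had a fold of 8.40 in shSCR replicate 2. A small peak beside it (128750089 to 128750245) had a fold of 3.76 in the same library. Toward the end of the gene, the region at 128752797 to 128753096 had folds of 4.01 and 4.18 in shSCR replicates 2 and 3. Its local background was high, at 8.17 and 4.00 times the lowest background of its library, where the median over all 184 peaks of the locus was 2.51. All cells carry ectopic MYC, whose reads would fall on the coding exons of the MYC gene, so binding at the endogenous gene body and signal from the plasmid cannot be told apart here. Exon limits on hg19 were not used here, so these peaks were not assigned to exons or introns.

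Between the MYC gene and PVT1, 1 region was listed, about 7.0 kb after the MYC start (128755277 to 128755496). No shG9a library listed it, and its fold was 4.40 and 4.29 in shSCR replicates 1 and 2.

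Whether the shG9a libraries could have listed the MYC peaks was read from the lowest −log10 p-value in each list, taken as the limit of the caller. Each shG9a library was assumed to have the local background of the shSCR peak, relative to its own lowest background. Peak width, which the caller may also limit, was not considered. The measure compared was peak height, the whole-number pileup at the summit recovered from the authors' fold and p-value, divided by the lowest background of its library. At the local background of the region 0.4 kb before the start, the limit was a height of 10.7 to 24.3, depending on the shSCR peak whose background was used and on the library, over the 5 shG9a libraries other than shG9a_1 replicate 1. The shSCR heights there were 24.6, 20.5 and 29.4, and each was at or above the limit of all 5 libraries at its own background. When each height was first lowered by the ratio of the shG9a library's median height to the shSCR mean over the shared regions described below, 0.397 to 0.747, it stayed at or above the limit in 1 of the 5 libraries for each of the 3 peaks. The ratio covers only regions that all 8 libraries listed, so it may not hold at sites that shG9a libraries did not list. The highest MYC promoter peak, 0.8 kb before the start (height 36.9) and listed in shSCR replicate 2 alone, stayed at or above the limit in 5 of the 5. The shSCR peaks 2.0 kb before the start stayed so in 5 and 4, and those at the start in 4 and 0. In the gene body, the peak at 128750441 to 128751393, also listed in shSCR replicate 2 alone, stayed so in 5. Those toward the gene end stayed so in 1 and 0. The small peak at 128750089 (height 14.3) reached the limit of only 2 of the 5 before lowering and of 0 after it. A peak under the limit is not listed, so an absent peak does not show an unbound site. Limits were not computed for the shSCR libraries, so no such check covers the shSCR lists that lack a peak. A peak that stayed at or above the limit therefore does not by itself show a loss with the G9a hairpins.

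The PVT1 promoter was the strongest site of the locus and the only one listed in all 9 libraries. Its region, 128806449 to 128808467 (2019 bp), covers the PVT1 start, and the main summits lay −2 to 76 bp from that start. The authors' fold was 7.09, 41.7 and 28.1 in shG9a_1 replicates 1, 2 and 3 and 28.5, 45.7 and 25.8 in shG9a_4 replicates 1, 2 and 3. In shSCR replicates 1, 2 and 3 it was 44.7, 51.7 and 64.9. One shG9a value, that of shG9a_4 replicate 2, lay above the lowest shSCR value, so the folds of the groups overlapped. In shG9a_1 replicate 1 this was the only peak of the whole window, at rank 56 of 113.

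Peak heights at the PVT1 promoter were 33.2, 178 and 126 in shG9a_1 and 94.2, 180 and 87.3 in shG9a_4, against 257, 262 and 265 in shSCR. They did not overlap between the groups. How many other regions of the genome also lacked overlap was not counted, for this or any later region. The lack of overlap thus cannot be called particular to this site. By another measure, 71.6% of the 5245 regions compared below were lower in shG9a past the adjusted limma threshold. The mean height at the PVT1 promoter was 133 ± 44.5 (SD, n = 5, without shG9a_1 replicate 1) in shG9a and 261 ± 4.17 (SD, n = 3) in shSCR. The shSCR libraries lay close together, and the shG9a libraries spread widely, with the lowest heights among the 5 in the 2 shG9a_4 libraries of greatest recovered depth (1.90 and 2.65 times the shSCR mean). The main peak was 124, 696 and 814 bp wide in shG9a_1 and 664, 805 and 416 bp in shG9a_4, against 1927, 883 and 797 bp in shSCR. The number of peaks at this promoter, which often has more than 1 summit, was 1, 2 and 3 in shG9a_1, 3, 3 and 2 in shG9a_4 and 1, 2 and 3 in shSCR. The further summits lay in 2 places past the start, 841 to 943 bp and 1380 to 1515 bp from it. Their folds were 2.85 to 9.39 in shG9a libraries and 6.78 to 13.5 in shSCR libraries. The single peak of shSCR replicate 1, 1927 bp wide, spans both places, so its count and width are not like those of libraries that list separate peaks.

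The height difference at the PVT1 promoter was close to that of the shared regions as a whole. Heights were compared with limma over the 5245 regions that all 8 libraries other than shG9a_1 replicate 1 listed, with Benjamini-Hochberg adjustment over all of them. The PVT1 promoter fell by 1.00 on the log2 scale in shG9a relative to shSCR (SE 0.32, limma adjusted p = 0.00945), where the median of all 5245 regions was −0.85. Centred on the median of each library, the difference was −0.15 (SE 0.13, limma adjusted p = 0.754). As a ratio to that median, its height was 5.08 and 3.59 in shG9a_1 replicates 2 and 3 and 4.17, 4.30 and 3.91 in shG9a_4, against 4.79, 4.13 and 5.14 in shSCR. These ratios overlapped, and the promoter stayed near the top of every list: 11 and 65 of the 5245 regions were higher in shG9a_1, 27, 31 and 37 in shG9a_4, and 13, 22 and 12 in shSCR. With single libraries left out, the uncentred difference ranged from −1.16 to −0.87, but the call did not always hold. Without shSCR replicate 1 it was −1.01 (limma adjusted p = 0.0530), where 20.7% of all regions were lower past the threshold. Without shSCR replicate 2 it was −0.995 (limma adjusted p = 0.0888), where 0.0% were. Without shG9a_1 replicate 3 it was −0.87, and only the size is given, since 1 library of that hairpin is left. The uncentred difference also missed the threshold of 0.05 when the authors' fold replaced height (limma adjusted p = 0.0564). Among libraries of like recovered depth, shG9a_1 replicate 3 and shG9a_4 replicate 2 against the shSCR libraries, the difference was −0.79. That fit leaves 1 library per G9a hairpin, so only the size of the difference is given here.

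The hairpins taken singly gave −0.80 for shG9a_1 (limma adjusted p = 0.159) and −1.20 for shG9a_4 (limma adjusted p = 0.00452) at the PVT1 promoter, both against the same shSCR libraries. The difference of shG9a_4 from shG9a_1 was −0.40 (SE 0.40, limma adjusted p = 0.796). Without shG9a_4 replicate 2, the highest of the shG9a_4 libraries, shG9a_1 differed from shSCR with a limma adjusted p of 0.000215, and shG9a_4 was lower than shG9a_1 by a log2 difference of −0.73 (limma adjusted p = 0.00354). In that setting 56.4% and 40.0% of all 5245 regions were lower in the same comparisons.

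**Figure D2:**
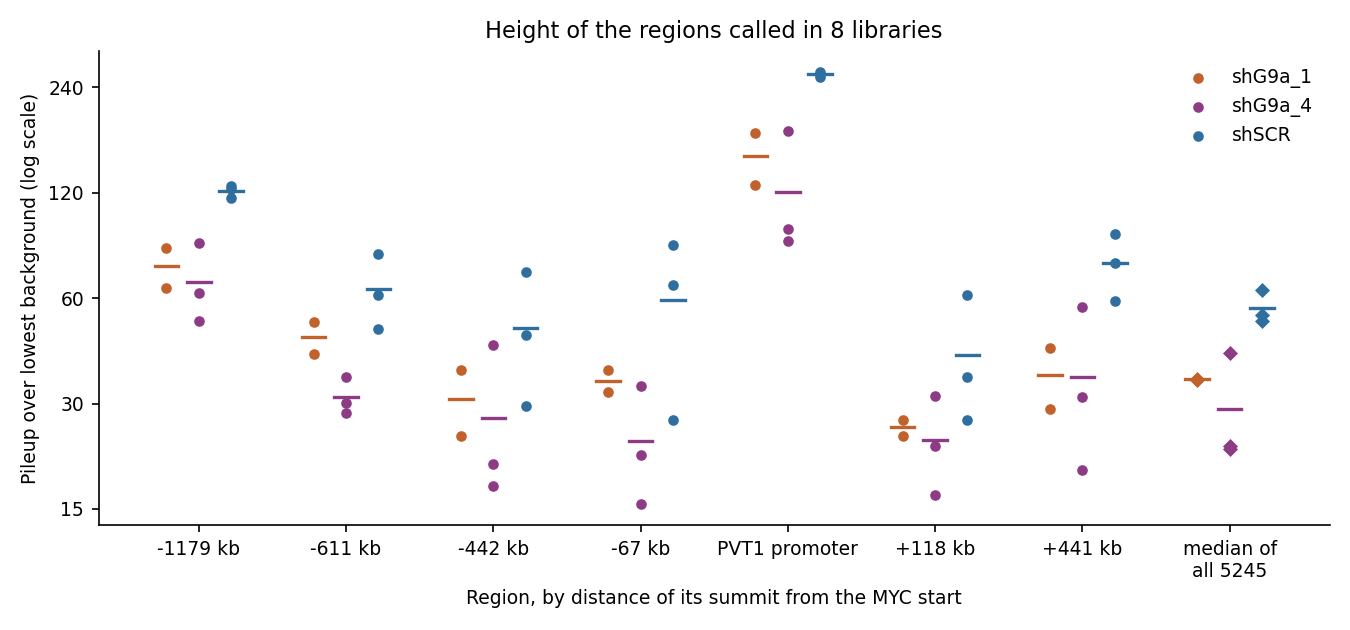
Height at the 7 regions of the locus listed in all 8 libraries other than shG9a_1 replicate 1, as pileup over the lowest background of each library on a log axis, with shG9a points left of shSCR at each region and short lines for the means. Diamonds give the median over all 5245 shared regions in each library. At the PVT1 promoter the shG9a heights reach 180 and the shSCR heights start at 257.

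Past its promoter, PVT1 held a scatter of weak peaks. The body was taken as the stretch from 2000 bp after the PVT1 start to 306733 bp after it, the RefSeq length of the gene. It held 11 regions, with 0, 2 and 2 peaks in shG9a_1, 1, 2 and 2 in shG9a_4 and 7, 10 and 4 in shSCR. The means were 1.5 ± 0.837 peaks (SD, n = 6) in shG9a and 7.0 ± 3.00 (SD, n = 3) in shSCR, and without shG9a_1 replicate 1 the shG9a mean was 1.8 ± 0.447 (SD, n = 5). Every shG9a count was below every shSCR count, as was also the case for the whole lists, which fell by 60.9%. Of the 11 regions, 2 were reproducible in shSCR and 7 were listed in shSCR libraries alone, against 49.4% of all merged regions.

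The stronger of the reproducible PVT1 body regions, 128866108 to 128867124, lay 59.6 kb after the PVT1 start. Its heights were 24.3 and 27.0 in shG9a_1 replicates 2 and 3 and 22.6, 31.5 and 16.5 in shG9a_4, against 35.7, 61.4 and 27.0 in shSCR. The groups overlapped, and the log2 difference of −0.69 missed the threshold (SE 0.35, limma adjusted p = 0.0598). It came to lie past the threshold without shG9a_4 replicate 2 (limma adjusted p = 0.00193) or without shSCR replicate 3 (0.0463). The other reproducible region, 128961873 to 128962316, was listed with a fold of 4.95 in shG9a_1 replicate 2 and in no other shG9a library, against 6.26, 6.94 and 5.56 in shSCR. Of the remaining body regions, the one at 128863704 to 128864135 had a fold of 6.73 in shG9a_4 replicate 2, against 4.98 and 5.68 in shSCR replicates 1 and 2. The one at 128962339 to 128962625 had 4.94 in shG9a_4 replicate 3, against 4.60 and 7.01 in shSCR replicates 1 and 2. No other of these regions was in a shG9a list.

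Beyond the RefSeq length of PVT1, 8 regions were listed up to the end of the window, and 1 of them was reproducible. It lay 441 kb after the MYC start, at 129188862 to 129189527. Its heights were 43.2 and 29.0 in shG9a_1 replicates 2 and 3 and 31.4, 56.6 and 19.4 in shG9a_4, against 91.5, 75.8 and 58.9 in shSCR. The highest shG9a value lay just under the lowest shSCR value. It had the most negative log2 difference of the 7 regions tested at the locus, −1.13 (SE 0.34, limma adjusted p = 0.00705), and −0.28 after centring (limma adjusted p = 0.712). The call was lost without shG9a_1 replicate 3 (limma adjusted p = 0.0506), shSCR replicate 1 (0.0592) or shSCR replicate 2 (0.0799).

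The long stretch before MYC held most of the peaks of the window, 102 of 184, in 36 regions. The shG9a_1 libraries listed 0, 9 and 9 peaks there and the shG9a_4 libraries 9, 10 and 5, while the shSCR libraries listed 17, 29 and 14. The mean was 7.0 ± 3.85 peaks (SD, n = 6) in shG9a and 20.0 ± 7.94 (SD, n = 3) in shSCR, and without shG9a_1 replicate 1 the shG9a mean was 8.4 ± 1.95 (SD, n = 5). The counts of the groups did not overlap, and neither did the lengths of the whole lists. Of the 36 regions, 9 were reproducible in shSCR and 23 were listed in shSCR libraries alone, against 49.4% of all merged regions.

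Near the far edge of the window, 1179 kb before the MYC start, lay the second strongest region of the locus (127568604 to 127570857, 2254 bp). Its fold was 16.7 ± 1.25 (SD, n = 5) in shG9a libraries other than shG9a_1 replicate 1, all below the shSCR libraries at 25.7 ± 3.05 (SD, n = 3). Heights were 83.7 and 64.3 in shG9a_1 replicates 2 and 3 and 51.5, 86 and 62.1 in shG9a_4, against 116, 123 and 125 in shSCR. The log2 difference was −0.81 (SE 0.32, limma adjusted p = 0.0235) before centring and 0.03 after it (limma adjusted p = 0.972). The call was lost without shG9a_1 replicate 2, shG9a_1 replicate 3, shG9a_4 replicate 1 or any 1 of the shSCR libraries (limma adjusted p up to 0.114), and with the authors' fold in place of height (limma adjusted p = 0.0888). In RefSeq gene order POU5F1B and then LRATD2 are the next protein-coding genes on this side of MYC, and neither was placed on hg19 here.

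Closer to MYC, 3 more regions of this stretch were listed in all 8 libraries. The region 611 kb before the start (128137341 to 128137686) had heights of 51.3 and 41.5 in shG9a_1 replicates 2 and 3 and 30.2, 35.7 and 28.1 in shG9a_4, against 80.4, 61.4 and 49.1 in shSCR. The region 442 kb before it (128306261 to 128306626) had 24.3 and 37.3 in shG9a_1 and 20.1, 44.1 and 17.5 in shG9a_4, against 71.4, 47.1 and 29.4 in shSCR. The region 67.1 kb before it (128680659 to 128681537) had 32.4 and 37.3 in shG9a_1 and 21.4, 33.6 and 15.5 in shG9a_4, against 84.8, 65.5 and 27.0 in shSCR. At each of the 3 the highest shG9a library lay above the lowest shSCR library, shSCR replicate 3. Their log2 differences were −0.72 (SE 0.34, limma adjusted p = 0.0479), −0.76 (SE 0.35, limma adjusted p = 0.0434) and −0.93 (SE 0.35, limma adjusted p = 0.0181). These calls were lost without shG9a_1 replicate 2, shG9a_1 replicate 3, shG9a_4 replicate 3, shSCR replicate 1 or shSCR replicate 2, with a limma adjusted p of up to 0.229, 0.321 and 0.194. Those 611 and 442 kb before the start were also lost without shG9a_4 replicate 1, and that 611 kb before it without shSCR replicate 3. Among libraries of like recovered depth, with 1 library per G9a hairpin, the log2 differences were −0.70, −0.19 and −0.59, each smaller in size than with all 8 libraries. With the authors' fold, those 611 and 442 kb before the start were lost (limma adjusted p = 0.134 and 0.0671).

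The weaker reproducible regions before MYC were listed in fewer shG9a libraries. The region 65.1 kb before the start (128683097 to 128683386) was listed in 4 of 6 shG9a libraries with a fold of 7.61 ± 0.890 (SD, n = 4), against 7.27 ± 0.777 (SD, n = 3) in shSCR. Its height went the other way, at 31.3 ± 7.43 (SD, n = 4) in shG9a and 42.2 ± 4.29 (SD, n = 3) in shSCR. Both shG9a means cover only the libraries that listed the site. The region 700 kb before it had folds of 3.69 and 5.01 in shG9a_4 replicates 1 and 2, against 6.67, 5.88 and 7.01 in shSCR. The region 345 kb before it had 6.47 in shG9a_1 replicate 3 and 5.90 and 5.95 in shG9a_4 replicates 1 and 2, against 6.87, 10.4 and 4.84 in shSCR. That 309 kb before it had 6.71 in shG9a_1 replicate 2, against 6.70, 8.12 and 5.44 in shSCR. Where these sites were still listed, their folds in the shG9a libraries lay within or under the shSCR range, except that shG9a_1 and shG9a_4 libraries reached above it at the site 65.1 kb before the start. The region 513 kb before the start (128234879 to 128235438) was listed in no shG9a library, against folds of 4.47, 10.2 and 4.91 in shSCR. It belonged to the second weakest of the 10 strength classes, of which 23.4% were listed in no shG9a library.

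**Figure D3:**
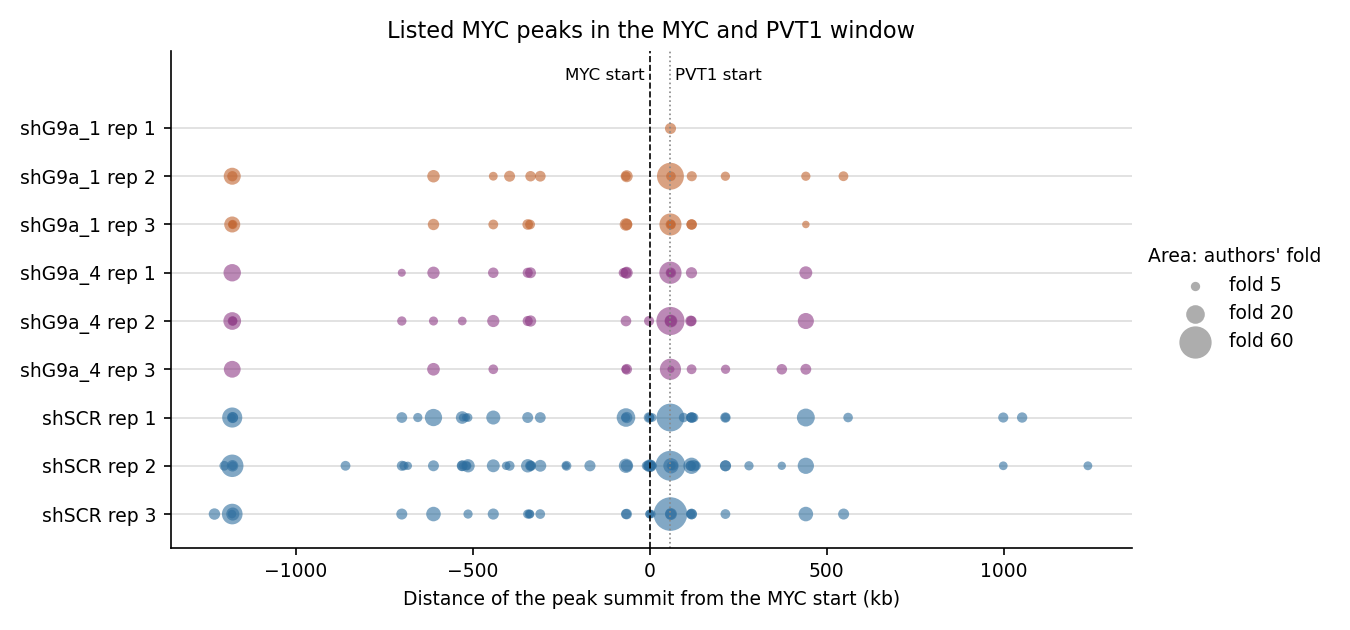
All 184 peaks of the window by distance from the MYC start in kb on the horizontal axis, with 1 row per library, shG9a above shSCR, and circle areas that follow the authors' fold. The PVT1 promoter carries a circle in all 9 rows, and the row of shG9a_1 replicate 1 holds that peak alone.

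Over the 7 regions listed in all 8 libraries, 6 fell in shG9a relative to shSCR at a limma adjusted p under 0.05, all 7 had negative differences, and none was higher past the threshold. Over all 5245 regions 71.6% were lower and 0.0% higher past the threshold, the background against which the 6 of 7 are to be read. The median log2 difference was −0.81 at the locus and −0.85 over all regions. After centring on library medians 0 of the 7 passed (background 0.0572% lower and 0.381% higher), and 4 turned positive: those 1179, 611 and 442 kb before the MYC start and that in the PVT1 body. Without shG9a_1 replicate 3, shSCR replicate 1 or shSCR replicate 2, 0 of the 7 passed, where 27.2%, 20.7% and 0.0% of all regions did. Without shG9a_1 replicate 2, shG9a_4 replicate 1 or shG9a_4 replicate 3 it was 2, 3 and 3, where 27.1%, 46.4% and 47.1% of all regions did. With the authors' fold 2 passed (background 28.1%), and among libraries of like recovered depth 3 did (background 25.9%). Taken singly, shG9a_1 gave 0 of 7 past the adjusted threshold (background 0.0%) and 2 at an unadjusted limma p under 0.05 (background 30.1%), and shG9a_4 gave 6 of 7 lower (background 83.5%). Between shG9a_4 and shG9a_1, 0 of 7 differed at the adjusted limma threshold (background 0.0%) and 0 at the unadjusted one (background 3.87%).

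Of the 14 regions of the locus that were reproducible in shSCR, 7 were kept, meaning listed in at least 5 of the 6 shG9a libraries. A further 5 were listed in 1 to 4 of them, and 2 were lost, meaning listed in none. The kept share was 50.0%, against 36.9% of the 14209 reproducible regions of the genome. The partial share was 35.7%, against 53.6%, and the lost share was 14.3%, against 9.49%. The 2 lost regions were that 0.4 kb before the MYC start and that 513 kb before it. Leaving out shG9a_1 replicate 2 raised the lost regions to 4, and leaving out shSCR replicate 1 or shSCR replicate 3 raised them to 5. No region was gained, meaning listed in no shSCR library and in at least 2 of 3 libraries of each hairpin, where 0.00925% of all 43222 merged regions were. In all, 42 of the 64 merged regions of the locus (65.6%) were listed in shSCR libraries alone, against 49.4% of merged regions of the genome. Of the 64, 35 were listed in a single library (background 38.8%), and 23 of these in shSCR replicate 2, which has the longest list (34738 peaks). The genome share of regions listed in that library alone was not counted.

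Counted by library, the locus held fewer peaks with the G9a hairpins. The numbers were 1, 15 and 15 in shG9a_1 and 14, 17 and 11 in shG9a_4, against 32, 53 and 26 in shSCR. Every shG9a count was below every shSCR count, with means of 12.2 ± 5.81 (SD, n = 6) and 37.0 ± 14.2 (SD, n = 3), a fall of 67.1% (two-sided exact permutation p = 0.0238, the smallest that 84 splits allow). All listed peaks fell by 60.9% in the same comparison. With shG9a_1 replicate 1 left out, shG9a averaged 14.4 ± 2.19 peaks (SD, n = 5) and the fall was 61.1% (exact permutation p = 0.0357, the smallest possible), where all listed peaks fell by 53.2%. The peaks of the window covered 124, 4121 and 4680 bp in shG9a_1 and 4618, 6444 and 3317 bp in shG9a_4, against 12210, 18031 and 8808 bp in shSCR, again without overlap. The difference was −27.3 peaks without shSCR replicate 1, −16.8 when only shSCR replicate 2 was missing and −30.3 when only shSCR replicate 3 was. With 2 shSCR libraries the exact permutation p cannot go below 0.0714, which was its value in each of these settings, and the groups did not overlap in any of them.

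Relative to the length of the lists, no difference at the locus passed the test. Per 1000 listed peaks it held 8.85, 1.31 and 1.15 in shG9a_1 and 1.25, 0.974 and 0.851 in shG9a_4, against 1.07, 1.53 and 1.29 in shSCR. The means were 2.40 ± 3.17 (SD, n = 6) in shG9a and 1.3 ± 0.226 (SD, n = 3) in shSCR (two-sided exact permutation p = 0.857). The first mean rests on the single peak of shG9a_1 replicate 1, without which it was 1.11 ± 0.192 (SD, n = 5) and the sign of the difference turned (exact permutation p = 0.286). With each of the other 8 lists reduced to its 11168 best peaks, the locus held 12.2 ± 2.28 peaks (SD, n = 5) in shG9a and 12 ± 1.73 (SD, n = 3) in shSCR (exact permutation p = 1). Each hairpin singly had 10.3 ± 8.08 peaks (shG9a_1) and 14.0 ± 3.00 (shG9a_4), against 37.0 ± 14.2 in shSCR (SD, n = 3 each). Each had an exact permutation p of 0.1, the smallest for 3 libraries against 3, and shG9a_4 minus shG9a_1 was 3.67 peaks (exact permutation p = 0.7), or −1 without shG9a_1 replicate 1.

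**Figure D4:**
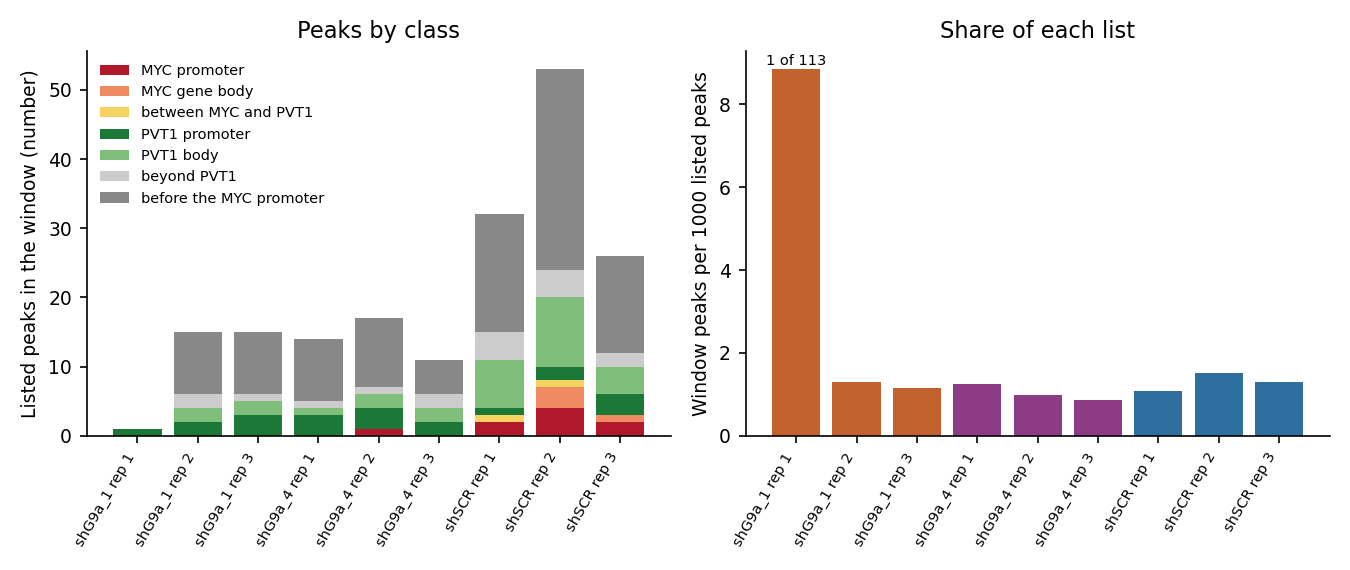
Peaks per library in the window, in number and per 1000 listed peaks, with the shG9a libraries left of shSCR, 1 bar per library, stacked by class on the left. The numbers run from 1 to 17 in shG9a and from 26 to 53 in shSCR, while the shares overlap apart from the 8.85 of shG9a_1 replicate 1.

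The background under the peaks of the locus was higher than under the peaks of the genome in every library. Local background over the lowest background of the library had a median of 2.31, 2.43 and 2.51 in shG9a_1, 2.15, 2.51 and 2.45 in shG9a_4 and 2.84, 3.06 and 2.55 in shSCR. Over all peaks of the same libraries it was 1.77, 1.65 and 1.49, then 1.47, 1.67 and 1.45, and 1.84, 2.04 and 1.47. The locus was higher in 9 of 9 libraries, and the difference was present with each hairpin and with shSCR. In shG9a_1 replicate 1 the locus value is that of 1 peak, at the PVT1 promoter. Pooled over libraries, the median was 2.51 at the locus, 1.86 on chromosome 8 before the window and 2.24 after it, and the medians of the 23 chromosomes ran from 1.23 to 2.16. A higher background lowers the fold and raises the pileup needed for a call, and its part in the results above was not tested.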

How the data were processed

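MYC ChIP-seq was deposited as 1 peak list per library for 9 libraries (3 per hairpin), with replicates not pooled. Tools listed in the submitters' processing notes are MACS2 2.1.0, Picard 2.7.1, SAMtools 1.3 and STAR 2.5.2a, with hg19 as a build. Not given in the sources used here are caller settings and read filters. The deposited values per peak are a score, the fold enrichment (a ratio at the summit) and −log10 p-values and −log10 q-values. The fold and p-value are the authors' values.

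Whole-number pileups were recovered from fold and p-value under the Poisson model of the caller (100% of peaks within 0.001 on the −log10 p scale). Height is pileup over the lowest background shared by many peaks of the library. Relative depth assumes 1 genome size setting for all libraries, and for shG9a_1 replicate 1 it depends on a peak of only 51 bp. Regions were ranked in strength by q-value within the shSCR lists. Two-sided exact permutation tests served for peak numbers, and heights were compared with limma 3.58.1 in R 4.3.3 (trend, 3 group means). Other steps used Python 3.11.15 with scipy 1.17.1. The scripts were tested on simulated data.

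The window, its classes, the lists and the tests were chosen with earlier results of these data known. All peaks of the window are accounted for, with library values for reproducible regions at MYC and PVT1 and for the strongest others. The end of PVT1 was taken from its RefSeq length (assembly GRCh38) after the data were seen. Alternatives tried were equal list lengths, stricter fold and q-value limits, summits within 500 bp for the region states, a narrower window and covered length. Others were centring, fold in place of height, like depth, the replicate number as a block, and each library left out in turn.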

Additional observations from a re-analysis of the deposited data

Results flagged for a closer look

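The share of listed peaks that fell in the locus was 8.85 per 1000 in shG9a_1 replicate 1, far above the 0.851 to 1.31 per 1000 of the other 5 shG9a libraries. The value rests on 1 peak, that of the PVT1 promoter, in a list of 113 peaks. Of 11 groups of values examined for a library far from the rest, this was the only one marked, and chance marks about 1 in 20 groups. The groups of heights left out shG9a_1 replicate 1, so it could be marked only for peak number, share and covered length.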

How the results depend on the processing

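The fall in peak number at the locus kept its direction under stricter q-value or fold limits, the narrower window, covered length and each left-out library (−30.3 to −16.8 peaks), and with lists of equal length it turned to 0.2 peaks. With the replicate block the difference of −24.8 had an exact permutation p of 0.0741, the smallest it allows. The share per 1000 peaks, 1.10 higher in shG9a, turned to −0.119 at a −log10 q of at least 5 and ranged from −0.190 to 1.41 over left-out libraries. Reproducible, kept and lost regions were 9, 3 and 1 at that q limit. At a fold of at least 5 they were 11, 3 and 1. With summits within 500 bp, 14 were reproducible, 6 kept, 6 partial and 2 lost. With equal lists 6 were reproducible, 0 partial and 0 lost. Left-out libraries gave 14 to 21 reproducible, 7 to 8 kept, 3 to 9 partial and 2 to 5 lost. Of the 7 heights tested in shG9a against shSCR, 0 passed after centring, 2 with fold, 3 at like depth and 0 to 7 over left-out libraries, where 0.0572%, 28.1%, 25.9% and 0 to 97.2% of all 5245 regions were lower. For shG9a_1 it was 1 with fold (all regions 10.1%) and 0 to 3 over left-out libraries (0 to 56.4%). For shG9a_4 it was 0 after centring, 0 with fold and 1 to 7 over left-out libraries (all regions 0.0381%, 10.5% and 21.8 to 99.0%). For shG9a_4 against shG9a_1 it was 0 to 2 over left-out libraries (0 to 40.0%). After centring, the regions 1179, 611 and 442 kb before MYC and that in the PVT1 body turned to 0.0306, 0.126, 0.0868 and 0.150 on the log2 scale. The causes were not tested, beyond the shorter lists and fewer libraries of the settings themselves. Correlations of deviations between hairpins were −0.0226 to 0.154 (median 0.0548) for libraries of the same replicate number. For different numbers they were −0.144 to 0.0807 (median −0.0382). Deviations among so few libraries per hairpin depend on each other, so these values cannot decide whether the numbers pair the libraries. With the replicate number as a block 7 of 7 heights passed, where 86.2% of all regions were lower. The PVT1 body region, −0.71 with the block, was the 1 that gained a call (limma adjusted p = 0.0299). The planned comparison of peaks in MYC exons with the promoter peak was not run, since no shG9a library lists both. Counting error alone limits weak peaks, and unlisted sites have no height.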

Other observations

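Set among the 59 windows of like size that tile chromosome 8, the locus was well filled: 1, 10 and 10 windows held more peaks in shG9a_1, 11, 17 and 18 in shG9a_4, and 16, 6 and 10 in shSCR. The median window held 0, 6 and 7 peaks in shG9a_1, 6, 8 and 6 in shG9a_4, and 19, 20 and 12 in shSCR.

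Of the 64 merged regions, 2 were listed in no shSCR library. One lay 74.3 kb before the MYC start and had a fold of 5.25 in shG9a_4 replicate 1. The other lay 547 kb after it and had a fold of 5.57 in shG9a_1 replicate 2.

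The pattern of heights over the 8 libraries, each centred on its median, was compared between the PVT1 promoter and 5238 regions outside the window. The most alike were on chromosome 1 at 151881693 to 151882429 (Pearson r = 0.940), chromosome 3 at 186648516 to 186649242 (0.939) and chromosome 9 at 137217587 to 137218122 (0.938). The PVT1 promoter took the place of the MYC promoter, which is not listed in all 8 libraries, after the data were seen. The values given are the highest of 5238 correlations, each over only 8 libraries, and how high such values would be by chance was not tested. The points share their libraries and depths, and the values are a description.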
